A study of Mus musculus with 18 samples.

Results

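Livers of 16-week-old mice given asparaginase were set against livers of 2-week-old mice given asparaginase, 3 libraries against 3, which are 6 of the 18 libraries of the study. They were taken by the age and treatment in their labels. The study sequenced polyadenylated RNA from C57BL/6J mouse liver at 2, 8 and 16 weeks of age after daily injections of asparaginase or of phosphate-buffered saline (PBS), 3 libraries in each of 6 groups. Asparaginase is a bacterial enzyme used against leukaemia that breaks down asparagine in the blood. The 16-week asparaginase mice, 2 males and 1 female by their labels (replicates 1 and 2, and replicate 3), received 3 IU per g of body weight into the abdomen once a day for 7 injections. The 2-week asparaginase mice, 1 male and 2 females by their labels, received the same dose and number of injections. The 16-week PBS mice (1 male, 2 females) and the 2-week PBS mice (2 males, 1 female) received the same volume of PBS. The 8-week asparaginase mice (2 males, 1 female), used once, had the same daily dose for 8 injections instead of 7. All livers were taken 7.5 h after the last injection, which was given in the morning. The comparison asks which genes still separate the mature from the suckling liver when both ages are given asparaginase. Asparagine levels were not among the data used here.

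Liver at 2 weeks is still growing: its cells divide, it is fed by milk rich in fat, and it keeps part of a fetal programme that is later shut off. The adult liver makes its own fatty acids, clears foreign compounds, and secretes proteins whose levels follow growth hormone and sex. A shortage of amino acids activates the kinase GCN2, which phosphorylates the translation factor eIF2; translation of the transcription factor ATF4 then goes up, and ATF4 raises genes for amino acid synthesis, transport and tRNA charging, together called the integrated stress response.

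The 6 libraries held between 24690871 and 46949361 counts. Levels are CPM, which sets each gene's count against the TMM-scaled size of its library; a fold change is log2 of 16 weeks over 2 weeks, given with its standard error, and refers to an even mix of the sexes at 16 weeks, so it can differ from the ratio of the printed levels. A gene was called higher or lower when its p from edgeR's quasi-likelihood test, adjusted by Benjamini and Hochberg over 16213 genes, was under 0.05. Hepatocyte markers were abundant at both ages, with summed levels of 76885, 75693 and 95856 CPM in the 16-week livers under asparaginase and 84335, 126750.0 and 105350.0 CPM in the 2-week livers under asparaginase. Markers of pancreatic acinar cells summed to 449, 14 and 5459 CPM at 16 weeks and 1702, 2489 and 909.5 CPM at 2 weeks under asparaginase. None of the 22 acinar markers tested was called. Transcripts of both sexes were present in 3 libraries, all of 2 weeks: asparaginase replicate 3 and PBS replicates 1 and 2. Among the PBS libraries, 2-week replicate 1 stood apart, with 172 CPM of H19 against 2710 and 3999 CPM in replicates 2 and 3. The PBS calls of the cholesterol list, the number of PBS calls and the genes shared with PBS are therefore also given without it. Other PBS calls and fold changes include it. Fewer cells of a type and less RNA per cell cannot be told apart in whole liver. Each library was treated as 1 mouse, and the p-values measure the spread between these libraries. That unit is uncertain for the 3 libraries with transcripts of both sexes, whose make-up was not tested.

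Under asparaginase 4685 of the 16213 genes differed between 16 and 2 weeks (28.9%), 2255 higher (13.9%) and 2430 lower (15.0%) at 16 weeks. At least a 2-fold change was also seen for 2153 of them (13.3%), 841 higher (5.19%) and 1312 lower (8.09%). At an unadjusted p under 0.05 there were 6635 (40.9%). The 3 libraries of 16 weeks did not overlap the 3 of 2 weeks for 47.4% of the genes tested, counting both directions. The median log2 fold change over all genes tested was -0.018. Without 16-week asparaginase replicate 3, the only female library of its group, 2040 genes were called. Genes called higher took 56.17%, 60.08% and 33.93% of all counts at 16 weeks, against 12.11%, 11.27% and 13.05% at 2 weeks. Major urinary protein genes and their pseudogenes made up most of this share in the 2 male libraries of 16 weeks, but not in the female one. Without them it was 16.75%, 13.77% and 20.13% at 16 weeks, against 12.06%, 11.16% and 12.47% at 2 weeks. Scaling by library totals alone, which leaves this share uncorrected, moved the median over all genes to -0.588 and upper-quartile scaling moved it to -0.11, so directions of gene groups are read against those medians. Upper-quartile scaling called 1710 genes higher and 3070 lower, and library totals alone called 703 higher and 9810 lower.

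**Figure D1:**
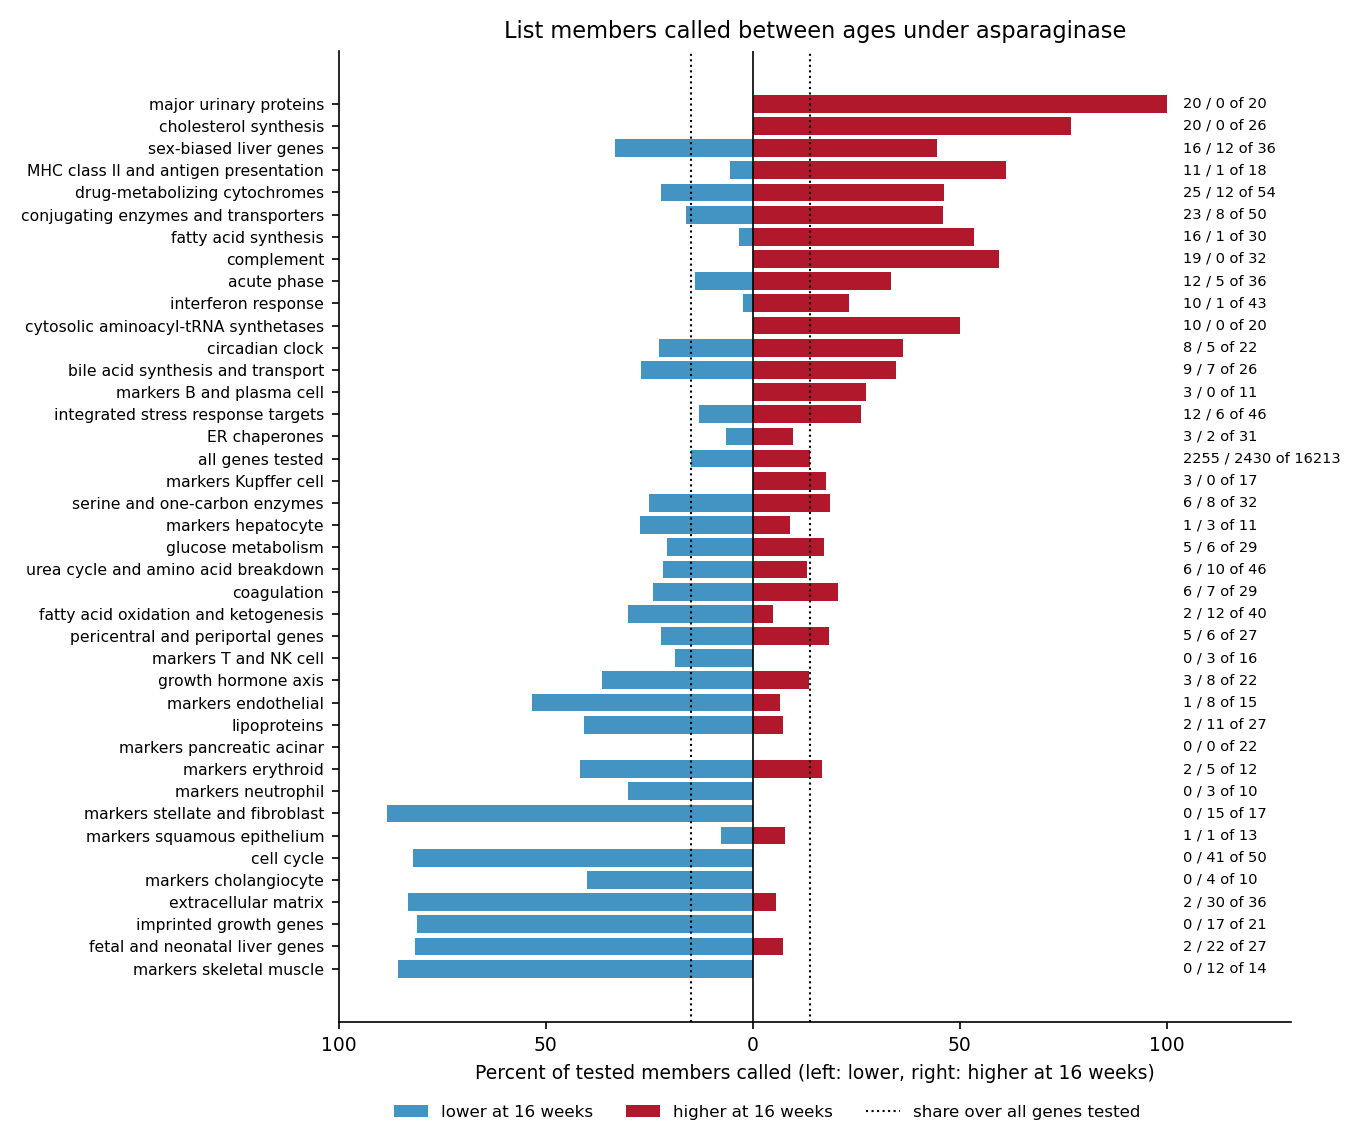
Share of tested members called lower (left, blue) or higher (right, red) at 16 weeks than at 2 weeks under asparaginase, for each gene list with at least 10 tested members, ordered by median log2 fold change; the x axis is percent of members and dotted lines mark the 15.0% and 13.9% of all genes. Cell cycle, matrix and fetal lists lie on the lower side (41 of 50, 30 of 36 and 22 of 27 members), and cholesterol synthesis on the higher side (20 of 26). Scaling by library totals alone turned the medians of the tRNA synthetase, complement, acute phase, interferon, bile acid, clock and B and plasma cell lists below 0, where the median of all genes was -0.588.

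Most genes of the fetal and neonatal liver were lower at 16 weeks. H19, an imprinted non-coding RNA (chr7:142575529-142578143, minus strand, GRCm38), was at 0.738, 1.52 and 0.89 CPM in the 16-week libraries, against 1003, 3788 and 2239.9 CPM in the 2-week libraries (log2 fold change -10.86 ± 1.23, adjusted p = 6.69e-05). Its neighbour Igf2 (chr7:142650766-142666816, minus strand), the fetal insulin-like growth factor, was at 0.422, 0.268 and 0.556 CPM at 16 weeks and 86.3, 319 and 216 CPM at 2 weeks (log2 fold change -8.92 ± 1.49, adjusted p = 0.000892); its exons overlap the antisense gene Igf2os, and strand use in counting is not stated. Neither gene had overlapping groups, and 2-week replicate 1 was the lowest of its group for both. Igf2bp3, an RNA-binding protein of fetal tissues that binds Igf2 transcripts, was at 0.0352, 0.0895 and 0.0371 CPM at 16 weeks and 12.9, 9.68 and 12.1 CPM at 2 weeks (log2 fold change -7.57 ± 0.43, adjusted p = 2.59e-07; exons shared with Malsu1). Akr1c18, which inactivates progesterone, was at 0.0352, 0.0597 and 0.0371 CPM at 16 weeks and 8.76, 11.5 and 11.4 CPM at 2 weeks (log2 fold change -7.64 ± 0.40, adjusted p = 1.78e-07). All 16-week libraries were below 0.1 CPM for these 2 genes, and no 2-week library was below 8 CPM. Of 27 fetal and neonatal genes tested, 22 were called lower and 2 higher, with a median log2 fold change of -3.45, beside 15.0%, 13.9% and -0.018 over all genes. Lpl, the lipase that frees fatty acids from lipoproteins and is made by neonatal liver, was at 14.3, 19.4 and 12.5 CPM at 16 weeks and 324, 660.4 and 507 CPM at 2 weeks (log2 fold change -5.01 ± 0.46, adjusted p = 1.58e-05). The 2 members called higher at 16 weeks were the retinal dehydrogenase Aldh1a1 (log2 fold change 3.97 ± 0.58, adjusted p = 0.000332) and the desaturase Scd2 (log2 fold change 0.93 ± 0.21, adjusted p = 0.00573). Without 16-week replicate 3 Akr1c18 (adjusted p = 1) and Scd2 (adjusted p = 0.0817) were not called; the value then rests on the sex difference of the PBS libraries.

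Other growth genes under parental imprinting fell with them: 17 of 21 tested were called lower and 0 higher (median -2.25). Grb10, an adaptor that restrains insulin signalling, was at 3.69, 3.34 and 3.97 CPM at 16 weeks and 40.8, 63.8 and 55.5 CPM at 2 weeks (log2 fold change -3.84 ± 0.34, adjusted p = 9.82e-06). Cdkn1c, the cyclin-dependent kinase inhibitor p57, was at 1.05, 1.16 and 2.3 CPM and 10.8, 13.8 and 11.2 CPM at those ages (log2 fold change -2.91 ± 0.31, adjusted p = 4.29e-05). For both genes every 16-week library was below every 2-week library. The fetal and imprinted lists share several genes, H19 and Igf2 among them, so they are not separate counts. At very low 16-week counts, Hsd3b1, a steroid dehydrogenase of gonads and adrenals, had 2 counts over the 16-week group and 1570 over the 2-week group, a ratio of 619 (2 weeks over 16 weeks; exact 95% interval 171 to 5110, counting error only). Cacna1b, a subunit of neuronal calcium channels, had 1 count at 16 weeks and 667 at 2 weeks, a ratio of 526 (94.1 to 20800). Without 16-week replicate 3 Cacna1b was not called (adjusted p = 1).

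**Figure D2:**
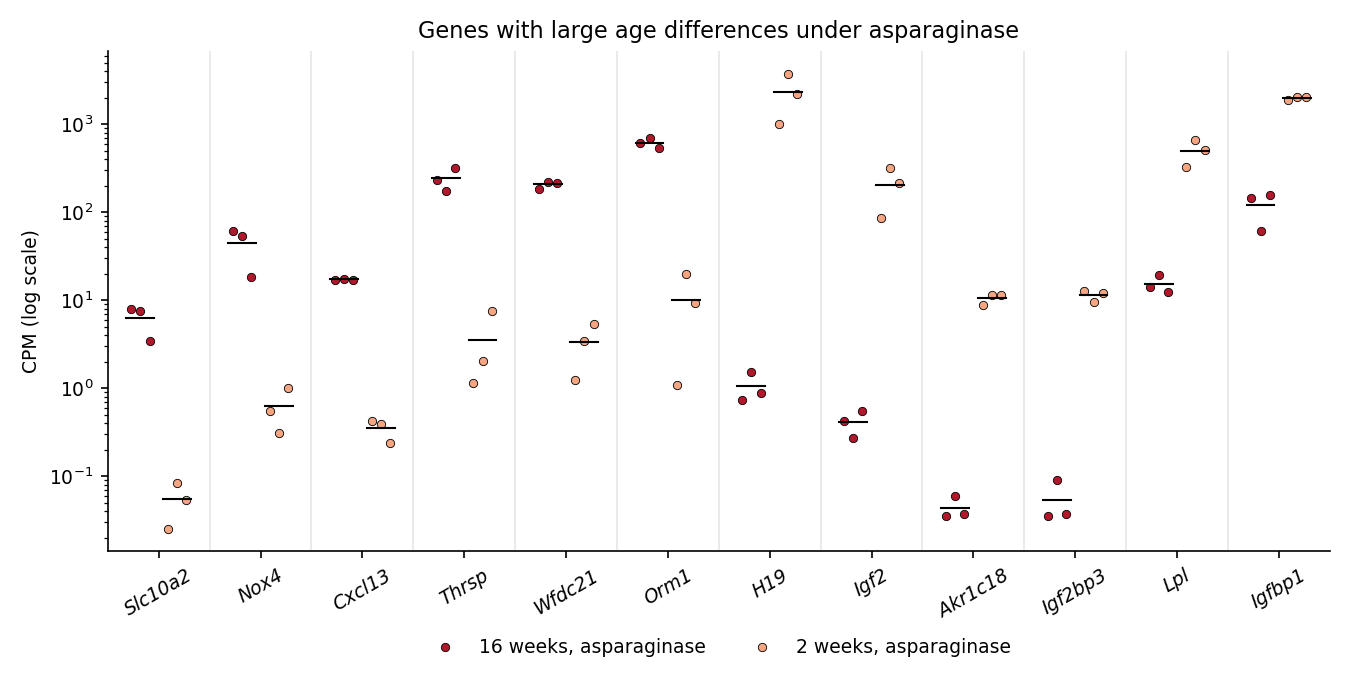
CPM (log scale) of 12 genes in each asparaginase library, 16 weeks (dark red) left of 2 weeks (light red), with a bar at the group mean of 3 libraries. Groups are apart for every gene shown: Slc10a2 lies at 3.45 to 7.95 CPM at 16 weeks and below 0.1 CPM at 2 weeks, and H19 lies at 0.738 to 1.52 CPM and 1003 to 3788 CPM.

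Major urinary protein genes (not their pseudogenes), predicted genes and immunoglobulin segments left aside, 12 rises were the largest among called genes with no overlap and a mean of at least 5 CPM at 16 weeks. Of these 8 were in protein-coding genes, which are described here, 3 in pseudogenes and 1 in a 5S ribosomal RNA gene. Of the major urinary proteins, carriers of pheromones in mouse urine, all 20 genes tested were called higher at 16 weeks (median log2 fold change 7.26). Their summed level was 502470.0, 644410.0 and 125600.0 CPM in the 16-week libraries and 327, 824 and 4369 CPM in the 2-week libraries. The lowest 16-week sum was that of the female library. These genes are near-identical copies, so reads could be split between them and only the family is given. Slc10a2, a sodium-dependent carrier of bile acids, was at 7.95, 7.46 and 3.45 CPM at 16 weeks and 0.0252, 0.0847 and 0.053 CPM at 2 weeks (log2 fold change 6.52 ± 0.42, adjusted p = 6.93e-07). Nox4, an oxidase that makes hydrogen peroxide, was at 61.5, 54 and 18.3 CPM at 16 weeks and 0.555, 0.31 and 1.01 CPM at 2 weeks (log2 fold change 5.74 ± 0.31, adjusted p = 1.78e-07). Both were lowest in the female library among the 16-week group, and neither overlapped the 2-week group. Cxcl13 (chr5:95956951-95961068, plus strand), a chemokine that draws B cells, was at 17.2, 17.7 and 17.2 CPM at 16 weeks and 0.429, 0.395 and 0.238 CPM at 2 weeks (log2 fold change 5.66 ± 0.30, adjusted p = 1.78e-07). Thrsp, a driver of lipogenesis, was at 234, 176 and 317 CPM and 1.14, 2.03 and 7.55 CPM at those ages (log2 fold change 6.12 ± 1.07, adjusted p = 0.00113). Orm1, an acute phase glycoprotein of plasma, was at 608, 705 and 540.0 CPM and 1.09, 20.1 and 9.32 CPM (log2 fold change 5.92 ± 1.21, adjusted p = 0.00302). For these 3 genes the highest 2-week library was far below the lowest 16-week library. Serpina12, a protease inhibitor also called vaspin, was higher too (log2 fold change 5.87 ± 1.08, adjusted p = 0.00156). Its levels were 42.4, 37.8 and 1.45 CPM at 16 weeks, far lower in the female library than in the males. At 2 weeks they were 0.126, 0.226 and 0.238 CPM. Ces3b, a carboxylesterase, rose on the same scale (log2 fold change 5.73 ± 0.88, adjusted p = 0.000481). Wfdc21 reached 186, 219.6 and 216 CPM at 16 weeks against 1.24, 3.44 and 5.38 CPM at 2 weeks (log2 fold change 5.97 ± 0.77, adjusted p = 0.000137).

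Of the targets of the integrated stress response, 12 of 46 tested were called higher at 16 weeks and 6 lower under asparaginase. Over all genes 13.9% were called higher and 15.0% lower, so the higher count was above its share and the lower count near it. The median log2 fold change of the list was -0.005, beside -0.018 over all genes. It shares members with the lists of tRNA synthetases and one-carbon enzymes, Nars, Aars and Mthfd2 among them. These lists are therefore not separate counts. Asns, which makes asparagine from aspartate, was at 28, 27.8 and 13.1 CPM in the 16-week libraries and 30.7, 26.4 and 19.4 CPM in the 2-week libraries (log2 fold change -0.42 ± 0.20, adjusted p = 0.137), with overlapping groups. In PBS livers it was at 0.749, 0.555 and 1.51 CPM at 16 weeks and 3.47, 3.93 and 3.69 CPM at 2 weeks (log2 fold change -1.90 ± 0.26, adjusted p = 0.000178). So Asns differed between ages in PBS livers, all 16-week libraries being the lower ones, and no difference was called under asparaginase. The test of the difference between the 2 age differences did not call Asns (log2 difference 1.48 ± 0.33, adjusted p = 0.228). Atf4 itself was at 55.2, 61 and 46.3 CPM and 78.4, 58 and 59.9 CPM at 16 and 2 weeks under asparaginase (log2 fold change -0.29 ± 0.16, adjusted p = 0.174). Ddit3, the stress transcription factor CHOP, was at 6.47, 6.77 and 10.3 CPM and 20.3, 13.1 and 10.9 CPM (log2 fold change -0.90 ± 0.28, adjusted p = 0.0282); its exons overlap Mars. Its call was lost without either 16-week male library (adjusted p = 0.0974 and 0.0897) and without 2-week replicate 1 or 2 (0.144 and 0.0517). Atf5 (log2 fold change -0.77 ± 0.30, adjusted p = 0.07; exons shared with Il4i1), Trib3 (log2 fold change -0.68 ± 0.44, adjusted p = 0.272), Sesn2 (log2 fold change 0.15 ± 0.21, adjusted p = 0.628) and Fgf21 (log2 fold change -0.56 ± 0.68, adjusted p = 0.563) were not called; Atf5 was called lower without 2-week replicate 3 (adjusted p = 0.0389). Fgf21, a fasting hormone of liver, was highest in replicate 1 of each age, with 24.7, 6.65 and 7.86 CPM at 16 weeks and 37, 7.68 and 7.81 CPM at 2 weeks. Among members called lower were Jdp2, a transcription factor of the AP-1 group (log2 fold change -1.48 ± 0.34, adjusted p = 0.00587), and Slc7a11, the cystine carrier (log2 fold change -0.91 ± 0.21, adjusted p = 0.00539; adjusted p = 0.0986 without 16-week replicate 3). Without 16-week replicate 3, 4 stress response targets were called higher and 4 lower; 3 were lower without 16-week replicate 2 or 2-week replicate 2.

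The age difference depended on treatment, by the test of the difference itself, for 3 targets of this response, 2 of them enzymes of serine synthesis and the folate cycle. Mthfd2 (chr6:83305691-83325908, minus strand), a mitochondrial enzyme of the folate cycle, was at 8.26, 8.92 and 6.86 CPM in the 16-week livers under asparaginase and 1.24, 1.92 and 1.32 CPM in the 2-week livers under asparaginase (log2 fold change 2.31 ± 0.29, adjusted p = 0.000133). In PBS livers it was at 0.509, 0.263 and 0.945 CPM at 16 weeks and 1.33, 0.759 and 1.05 CPM at 2 weeks (log2 fold change -0.84 ± 0.33, adjusted p = 0.0771). The groups did not overlap under asparaginase and did overlap under PBS. Psat1 (chr19:15904678-15947337, minus strand), an aminotransferase of serine synthesis, was at 19.1, 17.6 and 20.6 CPM at 16 weeks and 16.2, 11.6 and 6.81 CPM at 2 weeks under asparaginase (log2 fold change 0.75 ± 0.27, adjusted p = 0.051). Under PBS it was at 0.689, 0.496 and 0.525 CPM at 16 weeks and 3.32, 3.77 and 3.83 CPM at 2 weeks (log2 fold change -2.70 ± 0.36, adjusted p = 0.000137). All 16-week libraries were thus above all 2-week libraries under asparaginase, where the test did not call the gene, and below them under PBS, where it did. Without 2-week asparaginase replicate 1 the age difference of Psat1 was called under asparaginase too (adjusted p = 0.0112), and that of Pck2 as well (0.0122). Pck2 (chr14:55540266-55551242, plus strand), the mitochondrial enzyme that makes phosphoenolpyruvate, was at 9.56, 9.84 and 10.9 CPM and 9.97, 7.99 and 7.02 CPM under asparaginase (log2 fold change 0.33 ± 0.13, adjusted p = 0.0777) and at 3.45, 3.56 and 2.45 CPM and 6.1, 6.29 and 6.47 CPM under PBS (log2 fold change -1.06 ± 0.14, adjusted p = 0.000145), at 16 and 2 weeks each time. Its groups overlapped under asparaginase and were apart under PBS. These 3 genes were the only ones of 16213 (0.0185%) called by the test of the difference between the age differences, and 0 were called with the sex term within each age or with the 12 libraries of 2 and 16 weeks: Mthfd2 (log2 difference 3.15 ± 0.44, adjusted p = 0.0361), Psat1 (log2 difference 3.45 ± 0.45, adjusted p = 0.0361) and Pck2 (log2 difference 1.39 ± 0.20, adjusted p = 0.0361). At an unadjusted p under 0.05 there were 1018 (6.28%), DESeq2 called 75 and limma-voom 0. Leaving out any single library of the 2-week or 16-week groups left between 0 and 2 genes called, while the log2 difference stayed between 2.67 and 3.63 for Mthfd2, 3.21 and 3.79 for Psat1, and 1.23 and 1.58 for Pck2. Phgdh, the first enzyme of serine synthesis, was at 4.61, 6.83 and 2.85 CPM at 16 weeks and 1.54, 2.23 and 1.32 CPM at 2 weeks under asparaginase (log2 fold change 1.34 ± 0.31, adjusted p = 0.00651), and at 0.24, 0.409 and 0.28 CPM and 0.592, 0.895 and 0.916 CPM under PBS (log2 fold change -1.24 ± 0.37, adjusted p = 0.0265). It was called higher at 16 weeks under asparaginase and lower under PBS; the test of the difference itself did not call it (log2 difference 2.58 ± 0.50, adjusted p = 0.131).

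Over all 32 serine and one-carbon enzymes tested, 6 were called higher and 8 lower (median -0.10), beside 13.9% and 15.0% of all genes. Aldh1l2, the mitochondrial partner of Mthfd2 in the folate cycle, was at 2.67, 2.74 and 1.71 CPM at 16 weeks and 0.429, 0.536 and 0.583 CPM at 2 weeks (log2 fold change 2.01 ± 0.44, adjusted p = 0.00435; 0.0927 without 16-week replicate 3; exons shared with D10Wsu102e). Gldc, which breaks down glycine, was at 55.3, 43.6 and 67.6 CPM and 144, 176 and 109 CPM at those ages (log2 fold change -1.35 ± 0.26, adjusted p = 0.00189). Mat1a, which makes the methyl donor S-adenosylmethionine in liver, was at 2183, 2306 and 2925 CPM and 5127, 4411 and 3656 CPM (log2 fold change -0.76 ± 0.17, adjusted p = 0.0046; 0.0706 without 16-week replicate 3). Without that library 2 members were called higher and 1 lower. Of the cytosolic aminoacyl-tRNA synthetases, which load amino acids onto tRNA, 10 of 20 were called higher and 0 lower (median 0.38); by library totals alone 0 were called higher and 8 lower, with a median of -0.20 beside -0.588 over all genes. Nars, the synthetase for asparagine, was at 125, 122 and 103 CPM at 16 weeks and 80.6, 69 and 56.8 CPM at 2 weeks (log2 fold change 0.71 ± 0.14, adjusted p = 0.0021). Aars, for alanine, was at 159, 167 and 129 CPM and 95.3, 83.7 and 69.1 CPM (log2 fold change 0.83 ± 0.18, adjusted p = 0.00502), and Mars, for methionine, at 59.5, 55.3 and 47.1 CPM and 32.2, 30.3 and 27.3 CPM (log2 fold change 0.78 ± 0.14, adjusted p = 0.00115; exons shared with Ddit3). Every 16-week library was above every 2-week library for the 3 synthetases, and the 3 fold changes were under 2-fold. Without 16-week replicate 3, 4 synthetases were called. In PBS livers 6 of the 20 were called higher at 16 weeks and 1 lower (median 0.29), and 5 were called the same way under both treatments. The PBS log2 fold change was 0.52 ± 0.14 for Nars, 0.83 ± 0.18 for Aars and 0.47 ± 0.14 for Mars. The test of the difference between the age differences called 0 synthetases.

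**Figure D3:**
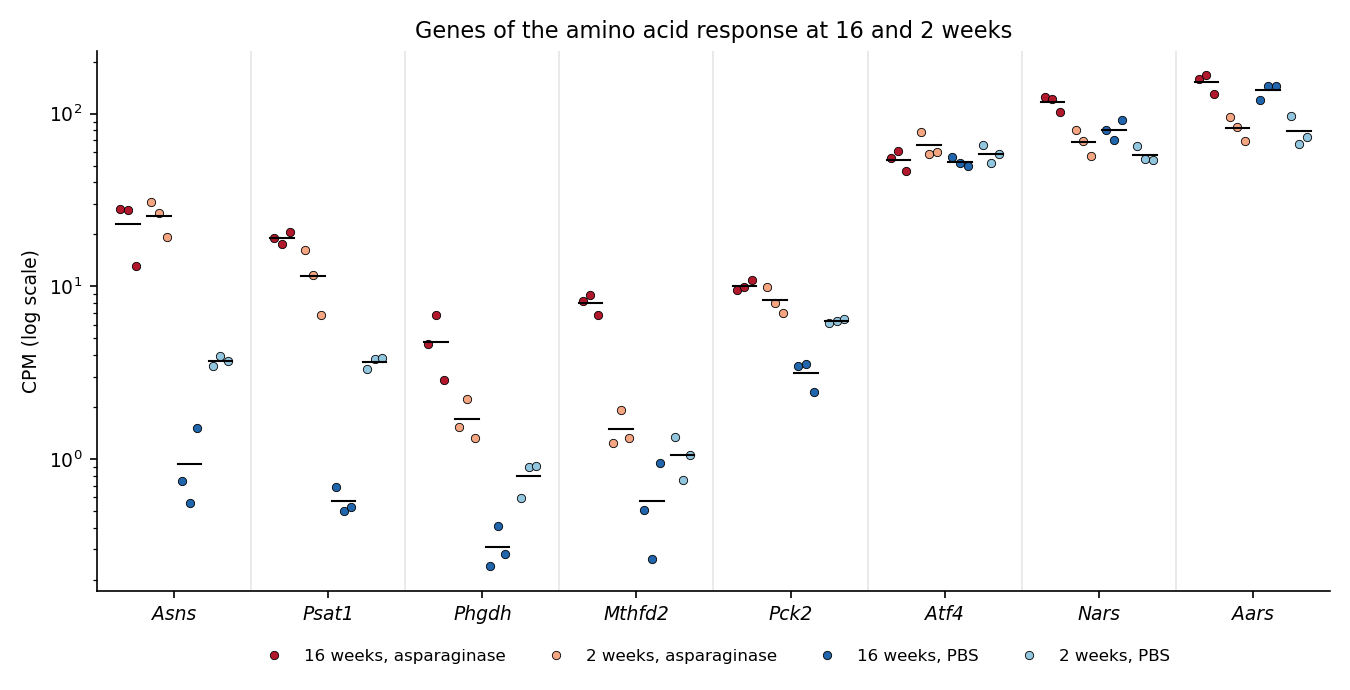
CPM (log scale) of 8 genes of the amino acid response in each library, from left to right 16 and 2 weeks under asparaginase (reds) and 16 and 2 weeks under PBS (blues); bars mark means of 3 libraries. The 16-week asparaginase libraries are above the 2-week ones for Mthfd2, Phgdh, Nars, Aars and Psat1. All 16-week PBS libraries are above the 2-week ones for Nars and Aars, and below them for Asns, Psat1, Phgdh and Pck2.

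Promoter windows of Asns and of the 3 genes called for a difference between age differences are shown because ATF4 and its partners act through the amino acid response element, written here as TGATGNAA. Each runs from 250 bases before to 50 after the RefSeq start of the gene (GRCm38.p6), 5′ to 3′ on the gene's strand; capitals mark TGATGNAA, the CCAAT box bound by NF-Y, and TTTGAA, the core of the cell cycle homology region, on either strand.
Asns (chr6:7693160-7693459, minus strand): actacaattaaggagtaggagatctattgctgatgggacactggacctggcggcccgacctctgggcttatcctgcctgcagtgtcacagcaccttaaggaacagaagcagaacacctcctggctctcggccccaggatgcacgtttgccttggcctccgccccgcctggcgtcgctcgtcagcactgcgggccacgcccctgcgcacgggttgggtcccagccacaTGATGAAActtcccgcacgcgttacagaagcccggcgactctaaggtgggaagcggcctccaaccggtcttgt
Pck2 (chr14:55540016-55540315, plus strand): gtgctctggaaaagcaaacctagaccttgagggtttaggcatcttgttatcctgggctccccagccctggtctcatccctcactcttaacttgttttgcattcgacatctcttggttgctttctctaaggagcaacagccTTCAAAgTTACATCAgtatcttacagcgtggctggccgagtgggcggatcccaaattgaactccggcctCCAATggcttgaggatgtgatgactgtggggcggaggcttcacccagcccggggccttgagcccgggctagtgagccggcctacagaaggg
Psat1 (chr19:15925010-15925309, minus strand): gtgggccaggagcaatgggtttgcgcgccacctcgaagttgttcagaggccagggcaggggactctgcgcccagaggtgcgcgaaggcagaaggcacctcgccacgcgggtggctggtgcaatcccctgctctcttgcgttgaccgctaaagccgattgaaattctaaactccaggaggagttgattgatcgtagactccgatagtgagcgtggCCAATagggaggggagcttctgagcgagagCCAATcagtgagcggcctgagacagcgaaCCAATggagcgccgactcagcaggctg
Mthfd2 (chr6:83317555-83317854, minus strand): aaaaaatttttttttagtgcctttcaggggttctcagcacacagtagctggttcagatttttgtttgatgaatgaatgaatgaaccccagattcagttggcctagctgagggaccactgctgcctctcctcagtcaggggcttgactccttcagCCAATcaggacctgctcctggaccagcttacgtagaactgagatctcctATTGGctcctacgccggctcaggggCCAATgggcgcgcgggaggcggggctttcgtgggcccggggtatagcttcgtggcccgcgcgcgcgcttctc
Asns held TGATGNAA beginning 23 bases before its start and Pck2 held it on the opposite strand, beginning 103 bases before, while Psat1 and Mthfd2 held 3 CCAAT boxes each. Of all 32817 promoter windows of the table, 4.0% held TGATGNAA and 37.4% held CCAAT. A window was found for 39 of the 46 stress response targets, and 13 of these (33.3%) held TGATGNAA. No motif overlapped another in these 4 windows.

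Genes of DNA replication and mitosis were lower at 16 weeks: 41 of 50 tested were called lower and 0 higher, with a median log2 fold change of -1.51. Their summed level was 107, 144 and 129.6 CPM in the 16-week livers under asparaginase, against 215, 354 and 311 CPM in the 2-week livers under asparaginase. In PBS livers it was 113, 98.4 and 91.3 CPM at 16 weeks and 515, 481 and 557 CPM at 2 weeks, with 48 of 50 called lower (median -3.02). The 2-week asparaginase sums thus lay between the 16-week sums and the 2-week PBS sums, without overlap. Mcm6, a subunit of the replicative helicase, was at 2.46, 4.5 and 3.74 CPM at 16 weeks and 10.6, 29.2 and 23.1 CPM at 2 weeks under asparaginase (log2 fold change -2.45 ± 0.37, adjusted p = 0.00042). Stmn1, which takes microtubules apart, was at 4.78, 6.18 and 6.23 CPM and 13.1, 17.8 and 17.5 CPM (log2 fold change -1.48 ± 0.19, adjusted p = 0.000134; exons shared with a predicted gene). Ccne2, a cyclin of the step into DNA synthesis, was at 1.65, 1.64 and 1.78 CPM and 4.34, 5.98 and 4.95 CPM (log2 fold change -1.62 ± 0.25, adjusted p = 0.000478; exons shared with Ints8), and Hells, a chromatin remodeller of replicating cells, at 0.633, 0.835 and 1.11 CPM and 1.99, 4.49 and 3.39 CPM (log2 fold change -1.89 ± 0.29, adjusted p = 0.000428). All 4 were apart between ages. Leaving out 16-week replicate 3 left 11 members called lower, leaving out 16-week replicate 1 left 31, and leaving out 2-week replicate 2 left 30; a fit with no sex term called 25. The median stayed between -1.79 and -1.31 in the fits that left out 1 library of these 2 groups. No cell cycle gene was called by the test of the difference between the age differences.

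**Figure D4:**
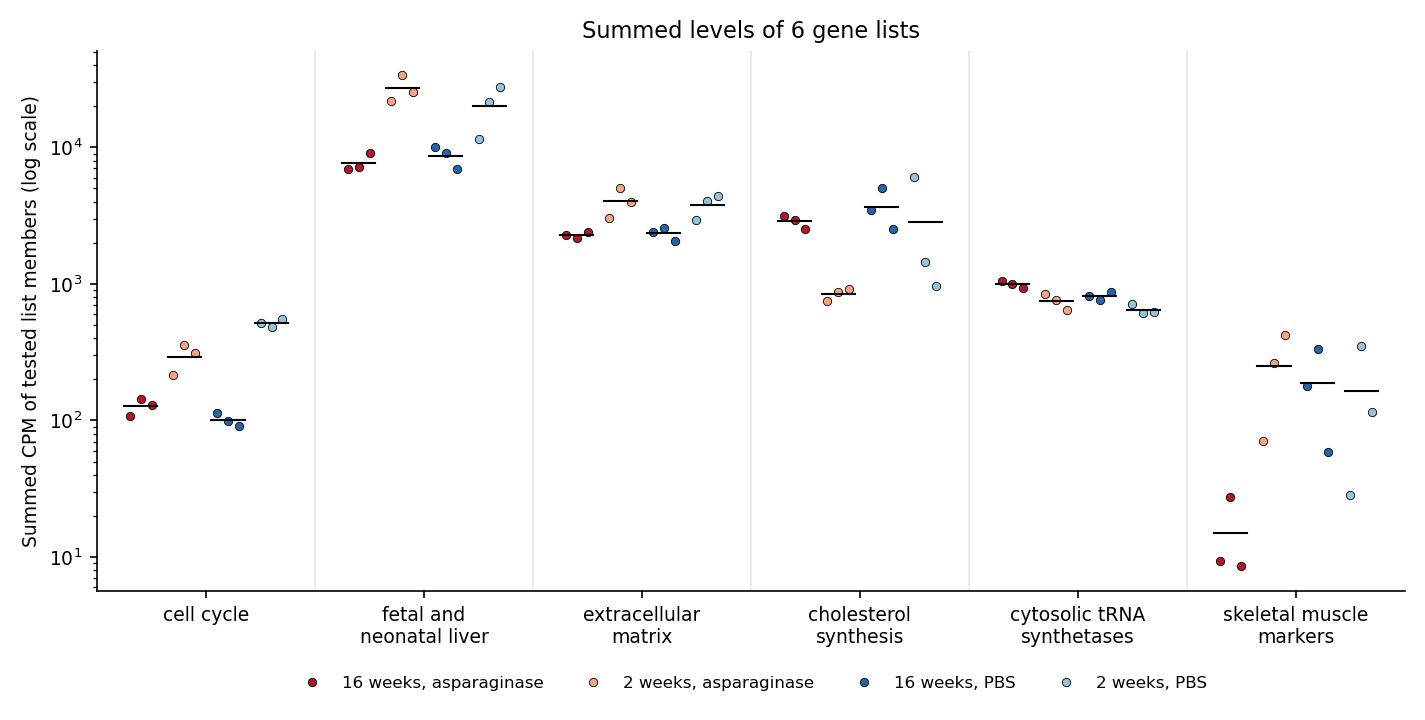
Summed CPM (log scale) of the members of 6 gene lists in each library, from left to right 16 and 2 weeks under asparaginase (reds) and 16 and 2 weeks under PBS (blues). Bars mark means of 3 libraries. The sums also hold matched members below the test filter, although the axis label reads tested. Cell cycle sums are at 107 to 144 CPM and 215 to 354 CPM at 16 and 2 weeks under asparaginase and at 91.3 to 113 CPM and 481 to 557 CPM under PBS; cholesterol sums of the 2-week PBS libraries spread from 969 to 6068 CPM.

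The windows of 2 mitotic genes, chosen after their values were seen, are shown in the same layout for the motifs that many cell cycle promoters share. Cdk1, the kinase that starts mitosis, was at 0.914, 2 and 2.3 CPM at 16 weeks and 3.76, 7.39 and 6.96 CPM at 2 weeks (log2 fold change -1.69 ± 0.30, adjusted p = 0.00118). Top2a, the topoisomerase that untangles sister DNA, was at 1.41, 5.01 and 3.34 CPM and 9.92, 16.4 and 15 CPM (log2 fold change -1.94 ± 0.43, adjusted p = 0.00507; adjusted p = 0.259 without 16-week replicate 3). Both genes were lower in every 16-week library than in any 2-week library.
Cdk1 (chr10:69352863-69353162, minus strand): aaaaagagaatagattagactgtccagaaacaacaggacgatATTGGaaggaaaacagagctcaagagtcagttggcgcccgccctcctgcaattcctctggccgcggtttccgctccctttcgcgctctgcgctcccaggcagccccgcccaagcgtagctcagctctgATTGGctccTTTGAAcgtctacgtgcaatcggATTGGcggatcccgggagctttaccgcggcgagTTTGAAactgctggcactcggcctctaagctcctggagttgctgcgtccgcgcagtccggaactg
Top2a (chr11:99024140-99024439, minus strand): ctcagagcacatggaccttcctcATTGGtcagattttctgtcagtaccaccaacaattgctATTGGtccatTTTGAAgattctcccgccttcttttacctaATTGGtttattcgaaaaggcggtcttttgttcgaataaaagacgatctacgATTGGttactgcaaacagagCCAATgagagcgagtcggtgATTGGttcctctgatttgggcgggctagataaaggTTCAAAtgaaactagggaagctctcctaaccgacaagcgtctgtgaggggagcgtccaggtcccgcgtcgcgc
Cdk1 held 3 CCAAT boxes and 2 TTTGAA matches, and Top2a held 6 and 2. Among the 42 cell cycle genes with a window, 33 (78.6%) held CCAAT and 23 (54.8%) held TTTGAA, where 37.4% and 17.9% of all windows did. These are matches of letters, and binding was not measured.

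Genes of cholesterol synthesis and uptake were higher at 16 weeks: 20 of 26 were called higher, each by at least 2-fold, and 0 lower (median 2.27). Their summed level was 3136, 2930.2 and 2528 CPM in the 16-week livers under asparaginase and 751, 869 and 912 CPM in the 2-week livers under asparaginase. Stard4, a carrier of cholesterol inside cells, was at 159, 152 and 127 CPM at 16 weeks and 16.2, 24.4 and 29 CPM at 2 weeks (log2 fold change 2.64 ± 0.42, adjusted p = 0.000633). Tm7sf2, a sterol reductase, was at 73.9, 77.6 and 76 CPM and 7.35, 11.2 and 11.3 CPM (log2 fold change 2.96 ± 0.53, adjusted p = 0.00142; exons shared with Vps51). For both genes each 16-week library was at least 3-fold above each 2-week library. In PBS livers only Ebp was called higher among the 26 (median 0.41), and the sums were 3470.2, 5076 and 2508 CPM at 16 weeks and 6068, 1446 and 969 CPM at 2 weeks. Without 2-week PBS replicate 1, the library that stood apart, 23 were called higher under PBS (median 1.79). No member was called for a difference between the age differences. Going the other way, the exporters of sterols to bile Abcg5 (log2 fold change -1.26 ± 0.15, adjusted p = 9.11e-05) and Abcg8 (60.0 ± 4.73 CPM at 16 weeks and 120.0 ± 20.8 CPM at 2 weeks, SD, n = 3 each, adjusted p = 0.000128) fell at 16 weeks; their exons overlap each other.

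Fatty acid synthesis followed the same direction, with 16 of 30 called higher and 1 lower (median 0.76). Acly, which makes acetyl-CoA for lipids in the cytosol, was at 134, 156 and 189 CPM at 16 weeks and 50.2, 55 and 52.5 CPM at 2 weeks (log2 fold change 1.65 ± 0.27, adjusted p = 0.00078). Mlxipl, the sugar-sensing transcription factor ChREBP, was at 262, 242 and 266 CPM and 96.7, 111 and 119 CPM (log2 fold change 1.23 ± 0.15, adjusted p = 0.000113), and Me1, which supplies NADPH, at 142, 134 and 159 CPM and 42.5, 29 and 40.7 CPM (log2 fold change 1.97 ± 0.34, adjusted p = 0.00108; exons shared with A330041J22Rik). The exception was the elongase Elovl5 (log2 fold change -0.81 ± 0.23, adjusted p = 0.0171), whose call was lost without 2-week replicate 2 (adjusted p = 0.0633) or 3 (0.0503) and without 16-week replicate 2 (0.0631) or 3 (0.102). Of the enzymes of fatty acid oxidation and ketone formation 12 of 40 were called lower and 2 higher (median -0.20). Ppargc1a, the coactivator that drives mitochondrial oxidation, was at 3.62, 4.24 and 4.63 CPM at 16 weeks and 34, 32.8 and 31 CPM at 2 weeks (log2 fold change -2.89 ± 0.25, adjusted p = 9.16e-06). Pdk4, which keeps pyruvate from being burnt, was at 3.27, 3.04 and 4.52 CPM and 35.1, 41.3 and 71.6 CPM (log2 fold change -3.77 ± 0.60, adjusted p = 0.000653). Both were several-fold apart with no overlap. Bdh1, an enzyme of ketone bodies (log2 fold change -1.07 ± 0.16, adjusted p = 0.000417; exons shared with a predicted gene), and Acadl, an acyl-CoA dehydrogenase (log2 fold change -0.74 ± 0.13, adjusted p = 0.000963), fell by smaller amounts. Without 16-week replicate 2, 4 oxidation genes were called higher and 6 lower; without replicate 3 it was 1 and 7, and without 2-week replicate 1 it was 5 and 8.

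Most genes of sugar and amino acid use were not called. Of 29 glucose genes 5 were called higher and 6 lower (median -0.17), shares near the 13.9% and 15.0% of all genes. Slc2a1, the glucose carrier GLUT1 of growing cells, was at 4.82, 5.82 and 3.93 CPM at 16 weeks and 12.8, 14.9 and 13.3 CPM at 2 weeks (log2 fold change -1.56 ± 0.21, adjusted p = 0.000219; exons shared with a predicted gene). Of 46 genes of the urea cycle and amino acid breakdown 6 were called higher and 10 lower (median -0.17), also near those shares. Got1, the cytosolic aminotransferase that interconverts aspartate and oxaloacetate, was at 76.8, 81.1 and 124 CPM at 16 weeks and 363, 359 and 219 CPM at 2 weeks (log2 fold change -1.68 ± 0.25, adjusted p = 0.000371). Cps1, the first enzyme of the urea cycle, was at 2063, 2304 and 2309 CPM and 4278, 4449.5 and 3538 CPM (log2 fold change -0.87 ± 0.16, adjusted p = 0.00145). Both were lower in every 16-week library. Haao, of tryptophan breakdown, went the other way (log2 fold change 1.10 ± 0.19, adjusted p = 0.00105). Leaving out 16-week replicate 3 changed these counts to 3 higher and 3 lower for the glucose genes and to 2 and 6 for the amino acid genes. Leaving out 2-week replicate 2 gave 3 and 3, and 5 and 5; without 16-week replicate 1 or 2-week replicate 3 the glucose counts were 5 and 3.

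Among drug-metabolizing cytochromes 25 of 54 were called higher and 12 lower (median 0.84), and among conjugating enzymes and transporters 23 of 50 were higher and 8 lower (median 0.78). Cyp2c38 was at 31.8, 28.5 and 94 CPM at 16 weeks, highest in the female library, and 4.06, 0.593 and 1.69 CPM at 2 weeks (log2 fold change 4.68 ± 0.53, adjusted p = 6.58e-05). Cyp26a1, which clears retinoic acid, was at 9.25, 7.99 and 8.41 CPM and 0.404, 0.423 and 0.106 CPM (log2 fold change 4.84 ± 0.56, adjusted p = 7.54e-05). Cyp4a31, of a family that hydroxylates fatty acids, was at 9.78, 8.32 and 24.8 CPM at 16 weeks and 137, 118 and 149 CPM at 2 weeks (log2 fold change -3.20 ± 0.26, adjusted p = 5.51e-06). These groups did not overlap for any of the 3. Ugt3a1, a glycosyltransferase, had the smallest p of the conjugating list (log2 fold change 1.48 ± 0.10, adjusted p = 1.4e-06), with 85.8, 73.7 and 72.8 CPM at 16 weeks and 26.7, 26.9 and 28.1 CPM at 2 weeks. The sulfotransferases Sult2a1 and Sult2a2, which act on steroids and bile acids, were at 0.281, 0.447 and 53.1 CPM and 0.141, 0.149 and 113 CPM in the 16-week libraries and at 652, 669.7 and 736 CPM and 424, 420.1 and 462 CPM in the 2-week libraries. In both, the 2 male 16-week libraries were below 1 CPM and the female one lay between them and the 2-week group (Sult2a1 log2 fold change -7.29 ± 0.85, adjusted p = 8.07e-05; Sult2a2 log2 fold change -6.79 ± 0.77, adjusted p = 6.93e-05). Members of the Cyp, Ugt and Sult families resemble each other, so reads may be shared between them. Without 16-week replicate 3 the call of Sult2a2 was lost (adjusted p = 0.281), and 7 cytochromes were called lower.

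Genes of adult liver known to differ between males and females were called in both directions, 16 of 36 higher and 12 lower. Cyp7b1, a male-biased hydroxylase of sterols, was at 208, 257 and 15 CPM at 16 weeks and 2.17, 2 and 3.34 CPM at 2 weeks (log2 fold change 4.62 ± 0.43, adjusted p = 1.58e-05). Cux2, a female-biased transcription factor, was at 0.492, 0.567 and 23.3 CPM and 28.5, 22.8 and 22.6 CPM (log2 fold change -2.81 ± 0.39, adjusted p = 0.000221). Its 2 male 16-week libraries were below 1 CPM, while the female one lay inside the 2-week range. Hao2, an oxidase of hydroxy acids, showed 0.0352, 0.0895 and 8.6 CPM at 16 weeks and 43.1, 77.1 and 52.2 CPM at 2 weeks (log2 fold change -5.89 ± 0.49, adjusted p = 6.75e-06). With no sex term 11 members were called higher and 4 lower. In the growth hormone axis 3 of 22 were called higher, near the 13.9% of all genes, and 8 lower, above the 15.0% of all genes (median -0.35). Igfbp1, a binding protein of insulin-like growth factors that insulin represses, was at 147, 60.6 and 157 CPM at 16 weeks and 1893, 2075 and 2042 CPM at 2 weeks (log2 fold change -3.96 ± 0.45, adjusted p = 6.98e-05). Igfbp2 was at 295, 351 and 343 CPM and 1951, 1753 and 1853 CPM (log2 fold change -2.47 ± 0.29, adjusted p = 8.61e-05), and Igfbp3, the main carrier in blood, at 12.2, 8.29 and 11.4 CPM and 53.3, 70.7 and 54.7 CPM (log2 fold change -2.45 ± 0.21, adjusted p = 9.69e-06). All 3 were lower in every 16-week library. Ghr, the growth hormone receptor, was higher (log2 fold change 0.81 ± 0.15, adjusted p = 0.00199), as was Igfals, which stabilises the circulating complex (log2 fold change 1.39 ± 0.23, adjusted p = 0.000941). Of the axis, 4 members were called lower without 16-week replicate 3, and 5 without 2-week replicate 2 or 3. In bile acid synthesis and transport 9 of 26 were called higher and 7 lower (median 0.21). Nr1h4, the bile acid receptor FXR (log2 fold change 0.88 ± 0.16, adjusted p = 0.00174), and Fgfr4, the receptor through which gut FGF15 limits bile acid synthesis (log2 fold change 0.90 ± 0.17, adjusted p = 0.00158), were higher at 16 weeks; the median of the list was -0.37 by library totals alone.

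Of the complement genes 19 of 32 were called higher and 0 lower (median 0.50); by library totals alone 7 were higher and 8 lower (median -0.07, beside -0.588 over all genes). C9, the component that forms the membrane pore, was at 367, 375 and 128 CPM at 16 weeks and 6.61, 15.4 and 12.9 CPM at 2 weeks (log2 fold change 4.27 ± 0.30, adjusted p = 1.71e-06). Serping1, the inhibitor of C1, was at 614, 606 and 528 CPM and 187, 232 and 250.3 CPM (log2 fold change 1.37 ± 0.18, adjusted p = 0.000156). C6 was at 214, 197 and 15.7 CPM and 11, 13 and 14.2 CPM (log2 fold change 2.24 ± 0.24, adjusted p = 4.43e-05), and its female 16-week library was just above the 2-week group. Of the genes of acute phase proteins 12 of 36 were called higher and 5 lower, with summed levels that overlapped between ages (median 0.45, and -0.11 by library totals alone). Serpina3k, a protease inhibitor of plasma, was at 7633, 6117 and 2567 CPM at 16 weeks and 209.8, 212 and 270.0 CPM at 2 weeks (log2 fold change 4.32 ± 0.61, adjusted p = 0.000265; exons shared with Serpina3m). Ahsg, the fetal plasma protein fetuin-A, was at 5870.3, 6115 and 8248 CPM and 19658, 27966 and 21882 CPM (log2 fold change -1.71 ± 0.27, adjusted p = 0.000643). The 5 lower became 2 without 16-week replicate 3 or 2-week replicate 2, and 3 without 16-week replicate 2 or 2-week replicate 3. Of 29 clotting factors 6 were called higher and 7 lower (median -0.18), where 13.9% and 15.0% of all genes were; without 16-week replicate 3 it was 2 and 3. Among genes of antigen presentation 11 of 18 were higher and 1 lower (median 0.88). H2-K1, a class I molecule, was at 812, 913 and 853 CPM at 16 weeks and 409.8, 304 and 357 CPM at 2 weeks (log2 fold change 1.30 ± 0.22, adjusted p = 0.00102), and Cd74, the invariant chain of class II, at 36.3, 50.3 and 51.2 CPM and 21.3, 17.4 and 22.4 CPM (log2 fold change 1.25 ± 0.20, adjusted p = 0.000662; exons shared with Mir5107). Neither gene's groups overlapped. Of 43 interferon response genes 10 were higher and 1 lower (median 0.45, and -0.11 by library totals alone); without 16-week replicate 2 the 10 became 4, without 2-week replicate 1 they became 5, and without 16-week replicate 3 they became 16.

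Matrix genes and markers of the cells that make matrix were lower at 16 weeks. Of 36 matrix genes 30 were called lower and 2 higher (median -1.90). Sparc, a glycoprotein that binds collagen, was at 34.1, 31.9 and 48.3 CPM at 16 weeks and 178, 287 and 236 CPM at 2 weeks (log2 fold change -2.57 ± 0.18, adjusted p = 1.33e-06). Col3a1, a fibrillar collagen chain, was at 19, 22.2 and 28.9 CPM and 139.9, 392 and 231 CPM (log2 fold change -3.39 ± 0.39, adjusted p = 6.93e-05). Postn, a matrix protein of growing tissue, was at 7.88, 6.32 and 12.5 CPM and 53.8, 72.1 and 54.6 CPM (log2 fold change -2.69 ± 0.25, adjusted p = 1.63e-05). Every 16-week library was below every 2-week library for all 3. Col15a1 was 1 of the 2 members called higher (log2 fold change 1.09 ± 0.19, adjusted p = 0.00118; exons shared with a predicted gene). Markers of stellate cells and fibroblasts were called lower for 15 of 17 and higher for 0 (median -0.94), with summed levels of 375, 383 and 465 CPM at 16 weeks and 721, 1243 and 918 CPM at 2 weeks. Several collagens are in both lists. Endothelial markers were lower for 8 of 15 and higher for 1, and bile duct markers lower for 4 of 10. Kupffer cell markers were higher for 3 of 17, near the 13.9% of all genes, and lower for 0, where 15.0% of all genes were. Erythroid markers were lower for 5 of 12 and higher for 2. Summed over all 21 of these markers, tested or not, their levels overlapped between ages. The sums were 517, 335 and 225 CPM at 16 weeks and 457, 876 and 828 CPM at 2 weeks. Among those called lower, Tfrc, the receptor for iron-loaded transferrin, was at 9.11, 9.9 and 8.71 CPM at 16 weeks. At 2 weeks it was at 88.2, 148 and 106 CPM (log2 fold change -3.64 ± 0.33, adjusted p = 1.27e-05). T and NK cell markers were lower for 3 of 16, near the 15.0% of all genes, and B and plasma cell markers higher for 3 of 11. Neutrophil markers were lower for 3 of 10, but their summed level went the other way. Over all 13 of these markers, tested or not, it was 37.7, 48.6 and 48.1 CPM at 16 weeks. At 2 weeks under asparaginase it was 21.7, 35.2 and 30.2 CPM. Skeletal muscle markers were lower for 12 of 14 (median -4.01), with sums of 9.42, 27.3 and 8.53 CPM at 16 weeks and 70.7, 262 and 420.3 CPM at 2 weeks. Without 16-week asparaginase replicate 3 the stellate count became 9, the bile duct count 2 and the erythroid counts 1 and 1. Without 2-week replicate 2 the endothelial count became 4, the bile duct count 2 and the erythroid count 2, and without 2-week replicate 3 the endothelial counts became 5 and 2 and the erythroid count 2. In PBS livers the skeletal muscle sums overlapped between ages, and 0 of 14 were called; without 16-week asparaginase replicate 3 the 12 became 0, without replicate 1 they became 6, and without 2-week replicate 3 they became 5. The part of these cells in the other results was not tested.

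Clock genes differed in both directions: of 22 tested 8 were called higher and 5 lower (median 0.33, and -0.25 by library totals alone). Over all genes 13.9% were called higher and 15.0% lower. Arntl, which encodes the clock factor BMAL1, was at 0.879, 0.776 and 1.04 CPM at 16 weeks and 10.1, 17.1 and 11.8 CPM at 2 weeks (log2 fold change -3.84 ± 0.74, adjusted p = 0.00201). Dbp, a clock output gene that BMAL1 raises, was at 53.6, 63.7 and 69.8 CPM and 13, 1.95 and 13.9 CPM (log2 fold change 2.72 ± 0.81, adjusted p = 0.0224; exons shared with Sphk2). The groups did not overlap for either gene. The call of Dbp was lost without 2-week replicate 2 (adjusted p = 0.0642) and without 16-week replicate 3 (0.123). Without 16-week replicate 3, 1 clock gene was called higher and 3 lower; without 2-week replicate 2, 3 and 3; without 2-week replicate 3 or 16-week replicate 2, 5 and 4; without 16-week replicate 1, 6 and 3. Zonal genes of the lobule were called higher for 5 of 27 and lower for 6 (2 lower without 16-week replicate 3), beside 13.9% and 15.0% of all genes. Pigr, which carries antibodies into bile, was at 615, 632 and 779.9 CPM at 16 weeks and 18.7, 19.2 and 42.5 CPM at 2 weeks (log2 fold change 4.69 ± 0.55, adjusted p = 8.46e-05), and Cyp2f2, a marker of the periportal zone, was at 509.7, 436 and 396 CPM and 22.4, 25.3 and 31.6 CPM (log2 fold change 4.01 ± 0.52, adjusted p = 0.00015; exons shared with a predicted gene). Axin2, a target of Wnt signalling near the central vein, was lower (log2 fold change -1.25 ± 0.25, adjusted p = 0.00268; exons shared with a predicted gene). Lipoprotein genes were lower for 11 of 27 and higher for 2, 4 lower without 16-week replicate 3 and 7 without replicate 2; Scarb1, the receptor for high-density lipoprotein, was at 103, 104 and 109.7 CPM at 16 weeks and 212, 224 and 244 CPM at 2 weeks (log2 fold change -1.10 ± 0.16, adjusted p = 0.000315). Chaperones of the endoplasmic reticulum showed 3 of 31 higher and 2 lower, below the 13.9% and 15.0% of all genes. In PBS livers 11 were higher and 1 lower, beside 12.0% and 13.8% of all genes. None of these chaperones was called by the test of the difference between the age differences.

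Most age differences under asparaginase were also seen in PBS livers, where 4183 genes were called (25.8%), 1938 higher (12.0%) and 2245 lower (13.8%). Of the genes higher at 16 weeks under asparaginase, 1381 were called higher under PBS too, which is 61.2% of the asparaginase list and 71.3% of the PBS list. Of those lower, 1538 were shared, 63.3% of the asparaginase list and 68.5% of the PBS list. Phgdh was the 1 gene called in opposite directions in the fit to all 18 libraries. Without 2-week PBS replicate 1 the shared genes were 1849 higher (71.0% and 74.2%) and 1677 lower (68.7% and 65.5%), and 2 were called in opposite directions. Across the 16213 genes the 2 sets of log2 fold changes had a Pearson correlation of 0.753 and a Spearman correlation of 0.774; genes are not independent replicates, and the comparisons share no library but share the fit. Raet1d, a ligand of the killer cell receptor NKG2D, had 1 of the 10 smallest p-values of the difference between age differences, with 10.5, 9.46 and 13.6 CPM at 16 weeks and 0.909, 1.21 and 1.67 CPM at 2 weeks under asparaginase and 7.61, 8.29 and 3.89 CPM and 6.1, 3.12 and 2.97 CPM under PBS (log2 difference 2.73 ± 0.45, adjusted p = 0.0835; exons shared with Raet1e). Marco, a scavenger receptor of macrophages, was another, with 53.7, 71.4 and 46 CPM and 40.3, 44 and 44.4 CPM under asparaginase and 7.76, 15.4 and 7.74 CPM and 27.5, 42.8 and 52.2 CPM under PBS (log2 difference 2.42 ± 0.44, adjusted p = 0.125). Neither passed the threshold. At 8 weeks under asparaginase, the mean level of 731 of the 841 genes higher by at least 2-fold (86.9%) and of 981 of the 1312 lower by at least 2-fold (74.8%) was nearer to the 16-week mean than to the 2-week mean, on a log2(CPM + 0.1) scale.

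**Figure D5:**
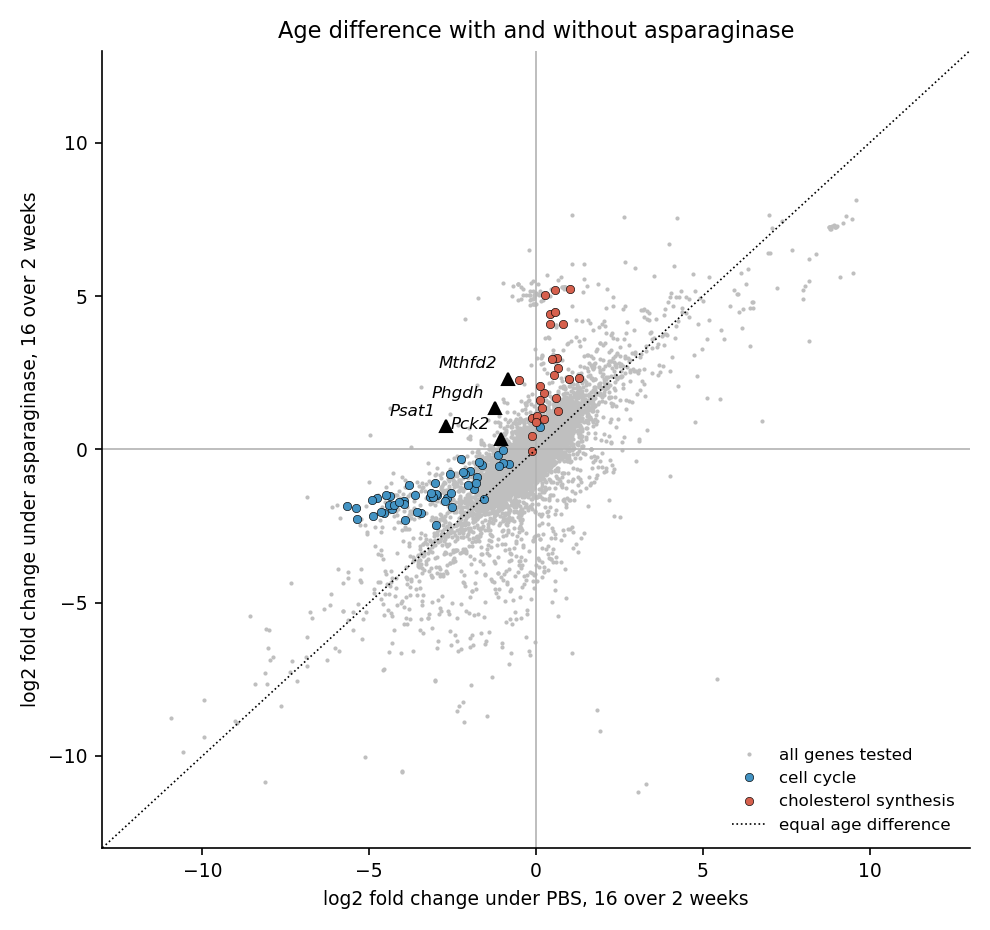
Log2 fold change of 16 over 2 weeks under asparaginase (y axis) against the same under PBS (x axis) for all 16213 genes tested (grey), with cell cycle genes (blue), cholesterol synthesis genes (red) and 4 enzymes of serine and related metabolism (black triangles). Cell cycle genes have a median of -1.51 under asparaginase and -3.02 under PBS; the cholesterol genes have 2.27 and 0.41, the second value 1.79 without 2-week PBS replicate 1.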

How the data were processed

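Polyadenylated liver RNA of 18 libraries was given as whole-number counts per gene, which the authors deposited in 1 table of 37315 genes. The submitters' processing notes name DESeq2, TopHat and TopHat2 2.0.9, and the builds GRCm38 and mm10. The read counter, its annotation and any use of strand were not given in the sources used here. Symbols and positions come from GENCODE M21 (35533 identifiers matched), promoter windows from RefSeq. Genes passing edgeR's filterByExpr (minimum count 10, total 15) numbered 16213. TMM scaling and edgeR 4.0.16 (R 4.3.3) quasi-likelihood tests used all 18 libraries, 1 term per group and a sex term (0.5 male, -0.5 female) at 8 and 16 weeks; there was none at 2 weeks, where 3 libraries held transcripts of both sexes. The fit had 10 residual and 3.71 prior degrees of freedom. A standard error is the size of the log2 fold change over the square root of F. Counts under about 10 per library limit precision, and intervals cover counting error only. DESeq2 1.42.0, limma 3.58.1 and other settings were alternatives.

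In data simulated on these counts (15786 genes), 75 of 100 changes of log2 size 1 and 93 of 100 of size 2 were recovered, with 4 false calls. Apart from these changes, each simulated gene had the same mean CPM in all 18 libraries. The simulation thus lacked the age, sex, treatment and major urinary protein differences of the real data. Its recovery and false calls are not rates for the real comparison. The 41 gene lists (1101 entries, 1087 matched, 1056 tested) and the comparison were chosen with earlier results of these data known. Genes named are the 12 largest rises and falls called with 5 CPM or more in the higher group and no overlap, 10 stress response genes (Asns, Psat1, Phgdh, Mthfd2, Atf4, Atf5, Ddit3, Trib3, Sesn2, Fgf21), up to 4 and 2 called members per list by p in its main and other direction, and the 10 smallest p of the difference between age differences; predicted genes were passed over. Not every gene taken is printed: 95 are, 21 with exons overlapping another gene, and 2 more (Cdk1, Top2a) were chosen after their values were seen.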

Additional observations from a re-analysis of the deposited data

Results flagged for a closer look

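The age difference depended on treatment, by the test of the difference itself, for 3 genes. The log2 difference, asparaginase minus PBS, was 3.15 for Mthfd2, 3.45 for Psat1 and 1.39 for Pck2, each with an adjusted p of 0.0361. With the sex term within every age the adjusted p was 0.0558 for all 3, and it was at most 0.0358 with DESeq2 size factors. It was also under 0.05 for all 3 by library totals alone, with no filter, with a minimum count of 50 and with DESeq2. With limma-voom it was 0.0963 for Mthfd2 and Pck2 and 0.141 for Psat1. With the 12 libraries of 2 and 16 weeks it lay between 0.0899 and 0.104. With no sex term it was 0.456 for Mthfd2, 0.549 for Pck2 and 0.0342 for Psat1. Pck2 was also not called with upper-quartile scaling (0.0524) or with Mup genes left out (0.0509). Groups of 3 libraries are too small for a test of single outlying libraries.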

How the results depend on the processing

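No paired analysis was possible because the labels number libraries through the whole study and give no pairs of mice. The 4685 genes called under asparaginase stayed within 1.5 times of that number, and 3420 to 4669 of them were called again, under DESeq2 size factors, Mup genes left out, no filter, a minimum count of 50, DESeq2, limma-voom, both other sex codings, the 12 libraries of 2 and 16 weeks and the fit without libraries of both sexes; under upper-quartile scaling 4140 were called again. They numbered 10513 by library totals alone, 1435 with glmTreat against 1.5-fold, 2333 at an adjusted p under 0.01, and 2040 to 4139 with 1 library left out. The 2153 genes past 2-fold became 4022, 1400, 1409, and 1312 to 2112 in those settings, and the 4183 of PBS became 12437, 1211, 2159, and 1814 (without 16-week replicate 3) to 5055 (without 2-week replicate 1). The 3 genes of the difference between age differences became 16 by library totals alone, 12 with no filter, 75 with DESeq2, 1 with no sex term, 0 to 2 with 1 library left out, and 0 with limma-voom, the sex term within each age, 12 libraries, no libraries of both sexes, glmTreat or an adjusted p under 0.01. By library totals alone the log2 fold changes of Sesn2 (-0.43), Pck2 (-0.25) and Marco (-0.15) turned round. With 1 library left out they ranged from -1.27 to 0.63 for Fgf21, from -1.29 to 0.068 for Trib3 and from -0.36 to 0.29 for Sesn2, turning round without 2-week asparaginase replicate 1 (Fgf21, Trib3) and without 16-week asparaginase replicate 3 (Fgf21 at 0.26, and Sesn2). None of these 5 was called for its age difference under asparaginase with all libraries. The cause was not tested. Of the 97 genes named, 17 changed direction or call in at least 1 of the 6 fits with 1 asparaginase library left out.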

Other observations

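Small RNA genes, looked at after the values were seen, formed a group of their own among the genes called higher at 16 weeks under asparaginase. All 32 ribosomal RNA genes tested, which are copies of the 5S RNA of the large ribosomal subunit, were called higher (median log2 fold change 5.04), and so were 21 of 27 small nuclear RNA genes, whose products belong to the splicing machinery (median 5.29). In PBS livers 0 of either were called. The summed level of the ribosomal RNA genes was 300.4, 5.97 and 295.3 CPM at 16 weeks under asparaginase, against 4.04, 2.26 and 12.2 CPM at 2 weeks. The small nuclear RNA genes summed to 249.6, 3.73 and 310.5 CPM at 16 weeks, against 5.15, 3.08 and 10.5 CPM at 2 weeks. So 16-week replicates 1 and 3 were high, and replicate 2 lay inside the 2-week range for both classes. These RNAs carry no poly(A) tail as a rule, their genes are near-identical copies, and 11 of the 27 small nuclear RNA genes shared the same counts in these 6 libraries with another of them. Their 53 calls are part of the 2255 genes called higher.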
